A study of Arabidopsis thaliana with 30 samples.

Results

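The transcriptome of wild-type (Col-0) Arabidopsis thaliana seedlings that had spent 24 h under liquid Murashige and Skoog medium (MS) was compared with that of untreated wild-type seedlings, across all genes. The comparison used 6 libraries of the 30 in the study, 3 with MS at 24 h and 3 untreated, chosen by the genotype, treatment and time in their labels. The whole study also held antimycin A treatments, MS at 3 h and the same groups in ein2-5, a mutant without a working EIN2, the protein that carries the ethylene signal from the receptors towards the nucleus. Here the ein2-5 libraries with MS at 24 h and untreated, and the wild-type libraries with MS at 3 h, serve for comparison, each with 3 libraries.

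All seedlings were grown on MS agar with sucrose in a cycle of light and dark. They were 12 days old when the liquid was added, and whole seedlings were taken. The untreated seedlings had no liquid added and carry the batch label of time 0 h, whereas the labels give the 3 h and 24 h libraries batches of their own. The MS libraries at 24 h therefore differ from the untreated libraries in the covering liquid, in a day of age and in the batch, and these cannot be told apart. The hour of the day at which untreated seedlings were taken is not given in the sources used here. Nothing in the labels ties replicates to separate cultures or harvests, so the spread between replicates may be technical. The p-values here rest on that spread estimated over all 30 libraries of the study, not over the 6 compared alone. Some of the other groups had replicates that differed more from each other than those compared here.

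A layer of liquid slows the diffusion of oxygen and other gases into and out of a plant, and it brings shoots as well as roots into contact with water and dissolved nutrients. Plants that lack iron, phosphate, sulphate or sugar switch on sets of genes for uptake and recycling, and turn them off when supply is ample. Many plant genes also follow the circadian clock, in which the dawn proteins CCA1 and LHY and the later pseudo-response regulators repress each other in turn.

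Expression is given as CPM, the read-pair count scaled to the library size with TMM factors, and fold changes as log2 of MS at 24 h over untreated ± standard error. A gene was called when its adjusted p in edgeR's quasi-likelihood test was under 0.05. Of 21256 genes tested, 4222 were called (19.9%). Of these, 1868 (8.79% of genes tested) were higher and 2354 (11.1%) were lower with MS at 24 h. The balance of directions depended on the scaling, since with upper-quartile factors 2188 genes were higher and 2025 lower. At least 2-fold changes were called for 662 genes (3.11%), 298 of them higher and 364 lower. The median change of all genes was -0.007, and the libraries of the groups did not overlap for 36.3% of genes.

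The totals of the 6 libraries ran from 22.7 to 32.6 M read pairs. Libraries of the same group differed by more than sampling noise, with a chi-square per degree of freedom of 4.06 to 5.14 between MS libraries and 6.22 to 15.1 between untreated libraries, where replicate 1 stood farthest from the others. EIN2 itself, the gene mutated in ein2-5, had 116, 119 and 119 CPM with MS at 24 h, against 105, 102 and 112 CPM untreated, and was not called. The summed CPM of 12 root hair and endodermis markers was 109 to 116 with MS at 24 h and 109 to 127 untreated, with no marker called. Markers of mature seed stayed at or below 0.173 CPM and those of flowers at or below 0.879 CPM in every library of the pair. Green leaf markers summed to 46300 to 47800 CPM with MS at 24 h and to 33000 to 38200 CPM untreated, and 5 of 8 were called higher. Guard cell markers summed to 42.1 to 45.6 CPM with MS at 24 h and to 47.5 to 55.6 CPM untreated, with 1 of 5 called higher.

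**Figure D1:**
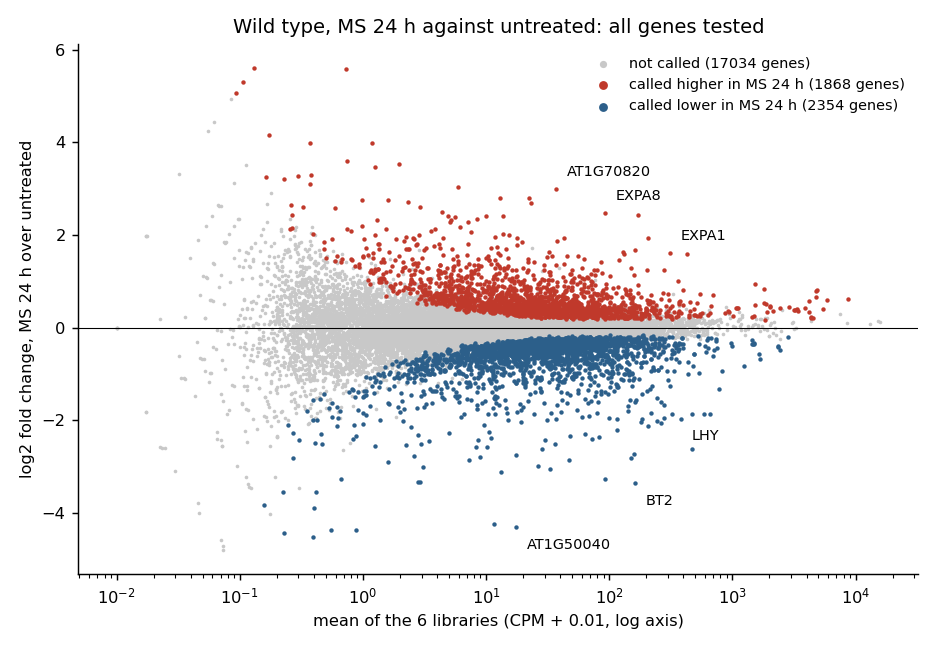
Each point is a gene tested in wild type, with the mean CPM of the 6 libraries (plus 0.01, log axis) across and the log2 fold change of MS at 24 h over untreated upwards. The 1868 genes called higher are red, the 2354 called lower are blue and the 17034 not called are grey.

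Of genes at 5 CPM or more whose libraries did not overlap, the largest decreases were those of AT1G50040, BT2 and GDPD2, of iron genes and of a few defence genes. AT1G50040, a protein with a DUF1005 domain and no assigned function, had 1.8, 1.1 and 2.1 CPM with MS at 24 h, against 30.9, 35.2 and 33.7 CPM untreated, a change of -4.31 ± 0.29 (adjusted p = 2.47e-12). BT2 (AT3G48360), a BTB and TAZ domain scaffold protein that restrains nitrate uptake genes, had 25.7, 24.2 and 36.0 CPM with MS at 24 h, against 307, 286 and 292 CPM untreated. GDPD2 (AT5G41080), which cleaves glycerophosphodiesters released from membrane lipids, had 15, 18.3 and 18.9 CPM with MS at 24 h, against 170, 173 and 160 CPM untreated. That the groups of these genes do not overlap follows from how the genes were chosen. The change was -3.36 ± 0.16 for BT2 (adjusted p = 1.19e-15) and -3.27 ± 0.14 for GDPD2 (adjusted p = 2.07e-16).

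The other genes with the largest decreases were AT1G13609, a defensin-like protein (-4.25 ± 0.51), AT5G05250 (-2.98 ± 0.28), the iron genes BHLH101, CYP82C4 and AT1G47400, and the pair TPS04 and PR2. TPS04, a terpene synthase, had 0.665, 0.778 and 0.0434 CPM with MS at 24 h, against 9.31, 4.43 and 1.39 CPM untreated. Its adjusted p of 0.0079 became 0.0536 without MS replicate 3 and 0.0713 without untreated replicate 1. PR2, a defence glucanase, had 2.84, 2.88 and 2.39 CPM with MS at 24 h, against 28.2, 21.6 and 20.8 CPM untreated. The adjusted p of 0.0154 for PR2 became 0.0535, 0.0509 and 0.0612 without MS replicates 1, 2 and 3.

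Of genes at 5 CPM or more whose libraries did not overlap, those with the largest increases had several functions. AT1G70820, annotated as a putative phosphoglucomutase, had 63.3, 68.7 and 66.9 CPM with MS at 24 h, against 7.03, 8.90 and 8.87 CPM untreated, a change of 3.00 ± 0.17 (adjusted p = 3.69e-14). The expansin EXPA8 (AT2G40610), which loosens cell walls, had 161, 144 and 164 CPM with MS at 24 h, against 33.5, 26.6 and 24.1 CPM untreated. AT3G16530, a legume-lectin protein, had 252, 297 and 320 CPM with MS at 24 h, against 44.1, 52.9 and 63.1 CPM untreated. The change was 2.48 ± 0.19 for EXPA8 and 2.44 ± 0.22 for AT3G16530. The remaining genes of this kind rose by 2.42 to 3.04 on the log2 scale. They were AT4G33720 of the CAP superfamily (3.04), AT3G44450 (2.80), the nucleoside phosphatase AT1G14250 (2.79), the methyltransferase AT1G15125 (2.68), the glucosyltransferase UGT73C1 (2.50), the camalexin enzyme CYP71A13 (2.42) and DIN11 (2.42).

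**Figure D2:**
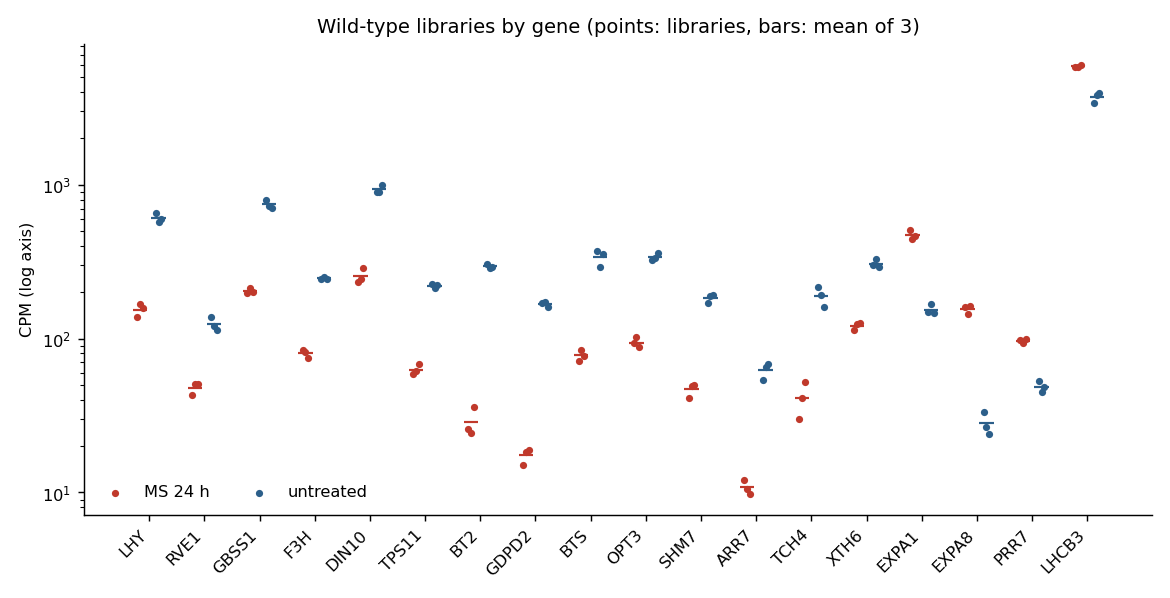
CPM of 18 genes (log axis) in the wild-type libraries with MS at 24 h (red, left of each pair) and untreated (blue, right), with a bar at the mean of 3 libraries. The MS points of LHY to XTH6 lie below all untreated points, and those of EXPA1, EXPA8, PRR7 and LHCB3 lie above them.

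Genes of iron uptake and deficiency were lower. Of 23 genes, 17 were called lower and none higher, with a median change of -1.49. BTS (AT3G18290), a ubiquitin ligase that restrains the iron deficiency response, had 72.0, 84.7 and 76.5 CPM with MS at 24 h, against 369, 293 and 354 CPM untreated. OPT3 (AT4G16370), which loads iron into the phloem, had 93.1, 102 and 87.7 CPM with MS at 24 h, against 326, 333 and 358 CPM untreated. Their changes were -2.12 ± 0.14 (adjusted p = 9.4e-13) and -1.85 ± 0.13 (adjusted p = 2.56e-12). Genes of a list were named mainly for a small adjusted p in this comparison, so gaps between their groups follow largely from that choice. The transcription factors PYE (-2.00 ± 0.17) and BHLH101 (-3.33 ± 0.38), both of the bHLH family that drives the iron response, and the nicotianamine synthase NAS4 (-1.45 ± 0.16) fell as well. So did CYP82C4 (-3.06 ± 0.34), which makes an iron-binding coumarin, and AT1G47400 (-3.01 ± 0.48), a small gene with a near-identical neighbour, between which read pairs may be shared.

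The root uptake genes of the same list, picked here after their values were seen, were lower too. IRT1, the main iron importer of the root surface, had 37.5, 51.8 and 31.7 CPM with MS at 24 h, against 125, 96.4 and 118 CPM untreated (-1.49 ± 0.21). FRO2, the reductase that supplies it with ferrous iron, changed by -1.63 ± 0.24. FIT, the root bHLH factor that activates both, had 6.60, 6.45 and 5.68 CPM with MS at 24 h, against 5.71, 5.27 and 5.81 CPM untreated. Its groups overlapped and it was not called (adjusted p = 0.507).

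Sulphur deficiency genes went the same way, with 10 of 15 called lower, none higher and a median of -0.59. SHM7 (AT1G36370), a nuclear serine hydroxymethyltransferase family member linked to sulphur status, had 41.4, 49.4 and 49.9 CPM with MS at 24 h, against 170, 188 and 191 CPM untreated (-1.97 ± 0.10, adjusted p = 8.58e-15). SDI1 (AT5G48850), which curbs glucosinolate synthesis when sulphur is short, had 7.67, 8.15 and 8.11 CPM with MS at 24 h, against 44.9, 50.1 and 52.1 CPM untreated (-2.62 ± 0.21). The groups of these genes did not overlap, which choosing genes by a small adjusted p favours. GGCT2;1, which recycles glutathione, fell by 1.39 ± 0.21 and APR1, the adenylyl sulphate reductase that commits sulphate to assimilation, fell by 0.68 ± 0.10.

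Phosphate starvation genes held 16 lower and 1 higher of 23 tested, of 25 in the list, with a median of -0.59. The number called lower dropped to 9 without MS replicate 3 and to 7 without untreated replicate 2. GDPD1 (AT3G02040), a relative of GDPD2, had 11.2, 24.3 and 18.6 CPM with MS at 24 h, against 59.7, 67.2 and 46.5 CPM untreated (-1.68 ± 0.24, adjusted p = 4.42e-06). The purple acid phosphatase PAP17 had 21.9, 28.6 and 25.5 CPM with MS at 24 h, against 43.1, 63.3 and 33.5 CPM untreated (-0.88 ± 0.19). The phosphate sensor protein SPX2 (-0.60 ± 0.12) and the xylem phosphate exporter PHO1 (-0.45 ± 0.08) fell by less. The untreated libraries differed among themselves for some of these genes. IPS1, a non-coding RNA that is a marker of phosphate shortage and was picked after its values were seen, had 1.29, 1.01 and 0.347 CPM with MS at 24 h, against 4.44, 9.94 and 0.821 CPM untreated. Its groups overlapped, and its adjusted p of 0.0131 became 0.0778 without MS replicate 3 and 0.186 without untreated replicate 2.

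The nitrate list split. Of 23 genes tested, 7 were called lower and 4 higher, and without untreated replicate 2 the higher ones numbered 2. Besides BT2, its relative BT1 had 76.3, 82.7 and 90.4 CPM with MS at 24 h, against 268, 250 and 221 CPM untreated (-1.57 ± 0.13). The genes AT1G68670 (-1.0 ± 0.07) and AT1G25550 (-0.98 ± 0.09) fell too. The nitrate transporter NRT2.1 had 1.64, 1.65 and 1.04 CPM with MS at 24 h, against 0.967, 1.68 and 0.916 CPM untreated, with overlapping groups and no call (0.29 ± 0.32, adjusted p = 0.588). Of 8 ammonium genes, GLN1;2, a cytosolic glutamine synthetase, was the sole call, with a change of -0.30 ± 0.07. No gene of the copper list (8 genes) was called.

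Sugar starvation genes, which plants express in the dark or when carbon runs short, were lower in 12 of 16, higher in none, with a median of -1.25. DIN10 (AT5G20250), of the raffinose synthase family, had 234, 243 and 286 CPM with MS at 24 h, against 903, 901 and 991 CPM untreated (-1.87 ± 0.12, adjusted p = 7.68e-13). TPS11 (AT2G18700), a trehalose-phosphate synthase family protein, had 58.6, 61.7 and 68.5 CPM with MS at 24 h, against 227, 212 and 223 CPM untreated (-1.81 ± 0.12, adjusted p = 9.4e-13). ASN1, the asparagine synthetase of dark-grown tissue, had 42.3, 36.6 and 40.4 CPM with MS at 24 h, against 116, 115 and 134 CPM untreated (-1.62 ± 0.13). The groups of these 3 genes did not overlap, which choosing genes by a small adjusted p favours. MCCA, which takes part in leucine breakdown, fell by 1.36 ± 0.11 and TPS9, a relative of TPS11, fell by 1.25 ± 0.09. DIN11, named like DIN10 but not in this list, went the other way and was among the largest increases given above.

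Among storage and pigment genes that sugar induces, most calls were lower. GBSS1 (AT1G32900), the granule-bound starch synthase that makes amylose, had 199, 212 and 200 CPM with MS at 24 h, against 790, 732 and 710 CPM untreated (-1.87 ± 0.10, adjusted p = 2.31e-14), and it was the sole call among 5 storage genes. GPT2 (-1.93) passed in a fit of the 6 libraries alone (adjusted p = 0.00131), and BAM5 (0.93) passed without untreated replicate 2 (adjusted p = 0.0194). In the flavonoid list 7 of 18 genes were called lower and 2 higher, with a median of -0.11. F3H, which makes dihydroflavonols, had 84.0, 82.3 and 74.6 CPM with MS at 24 h, against 243, 252 and 245 CPM untreated (-1.62 ± 0.09). The flavonol synthase FLS1 (-1.24 ± 0.08) and the flavonoid glucosyltransferase UGT78D2 (-0.77 ± 0.10) fell with it, whereas MYBL2, a repressor of anthocyanin synthesis, rose by 1.05 ± 0.09.

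**Figure D3:**
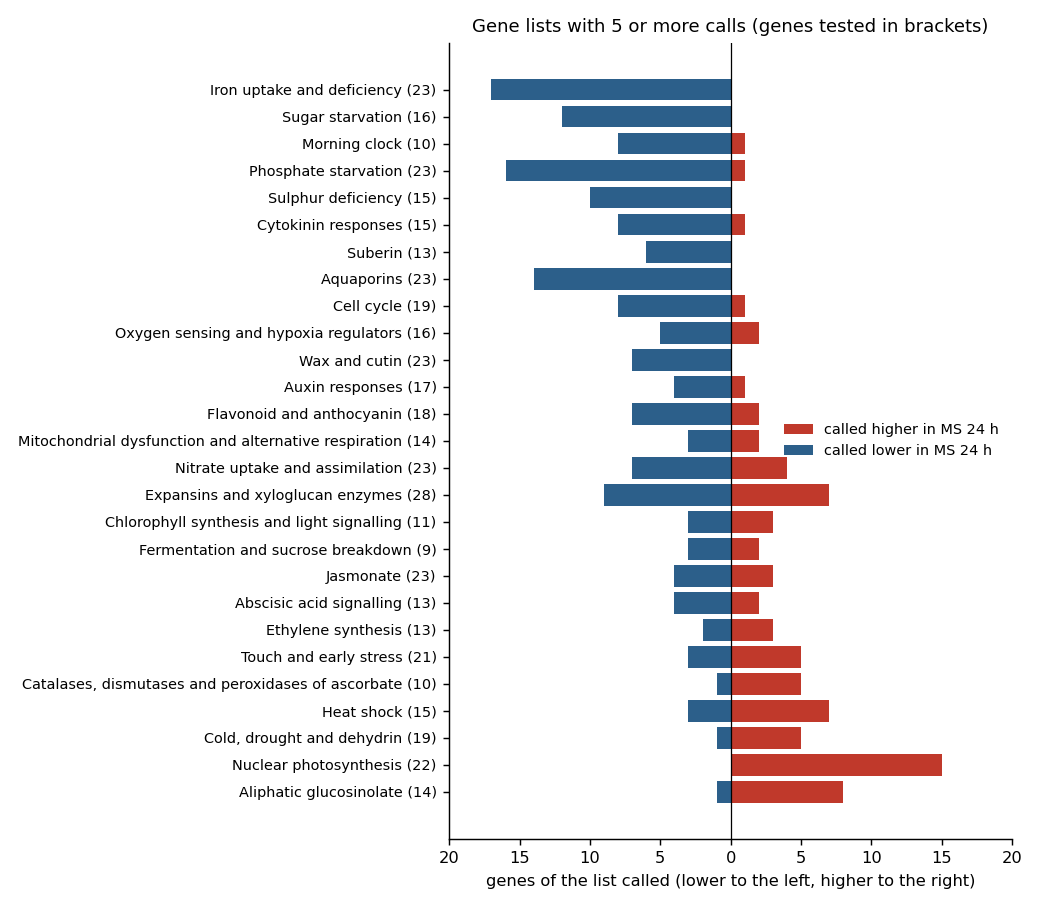
Genes called lower (blue, to the left) and higher (red, to the right) with MS at 24 h in the 27 lists with 5 or more calls, ordered by their median change, with the genes tested in brackets. Iron, sugar starvation and sulphur genes were called lower with none higher, and 15 of 22 photosynthesis genes were called higher with none lower.

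Clock genes of the morning were lower. Of 10 morning genes, 8 were called lower and 1 higher, with a median of -0.63. LHY (AT1G01060) had 139, 167 and 157 CPM with MS at 24 h, against 654, 568 and 596 CPM untreated (-1.97 ± 0.11, adjusted p = 7.22e-14). CCA1 (AT2G46830) had 197, 206 and 206 CPM with MS at 24 h, against 412, 374 and 386 CPM untreated (-0.94 ± 0.08, adjusted p = 1.7e-10). Both dawn genes lay lower in every MS library. Their relatives RVE1, which links the clock to auxin (-1.38 ± 0.10), and RVE2 (-1.72 ± 0.16) fell too.

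The pseudo-response regulators PRR7, PRR9 and PRR5 ran the other way. PRR7 (AT5G02810), a repressor of CCA1 and LHY, had 98.0, 93.6 and 98.8 CPM with MS at 24 h, against 52.8, 45.1 and 48.3 CPM untreated (0.99 ± 0.08, adjusted p = 1.12e-10). PRR9, the 1 higher gene of the morning list and named after its values were seen, had 51.6, 42.5 and 44.5 CPM with MS at 24 h, against 20.4, 21.3 and 19.1 CPM untreated (1.19 ± 0.11). PRR5 rose from a low level, with 2.66, 1.78 and 2.52 CPM with MS at 24 h, against 1.54, 0.638 and 0.853 CPM untreated (1.23 ± 0.27). Of the 11 genes in the day and evening list, 3 were called higher and none lower (27.3% called, against 19.9% of all genes). The other 8 were not called, and the median of the list was -0.05. The higher call of GI (0.32, adjusted p = 0.0244) was lost without MS replicate 2, or without untreated replicate 2 or 3. BOA was not called (-1.32, adjusted p = 0.0543), but was called lower in a fit of the 6 libraries alone (adjusted p = 0.0227). TOC1, the evening regulator, had 18, 16.4 and 18.3 CPM with MS at 24 h, against 16.7, 18.7 and 19.1 CPM untreated, with overlapping groups and no call (-0.05 ± 0.09, adjusted p = 0.782). The labels give no hour of harvest for the untreated seedlings, and a difference in that hour was not tested.

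CCA1 and LHY bind the evening element, AAATATCT, and P1BS, GNATATNC, is bound by the phosphate starvation factor PHR1. The 250 bases before the annotated start of each gene were searched on both strands for these motifs and for the G-box CACGTG, the core that bHLH and bZIP factors bind. The evening element lay in 8.4% of 1858 promoters of genes called higher, in 4.34% of 2351 promoters of genes called lower and in 4.97% of all 21129 promoters tested. The G-box lay in 8.02%, 8.59% and 7.2% of the same sets, and P1BS in 5.44%, 7.19% and 5.49%. Of the other motifs searched, the cold and drought element NCCGAC (11.8%, 12.8% and 12.6%), the hypoxia-responsive promoter element (0.807%, 0.595% and 0.857%) and the GCC box of ethylene response factors, GCCGCC (2.42%, 1.28% and 1.9%), are listed in the same order. P1BS and the evening element share the letters ATAT but differ in their first and last letters. A palindrome such as the G-box reads alike on both strands. Promoters of 5 genes described here are shown because they hold such a match beside a called change in transcript, which for PRR5 was at a low level. They run 5′ to 3′ on the gene's strand, from the RefSeq annotation of TAIR10.1, with the motif in capitals. A match is a description of the letters and not a shown binding site, and a reversed match appears as AGATATTT.
LHY: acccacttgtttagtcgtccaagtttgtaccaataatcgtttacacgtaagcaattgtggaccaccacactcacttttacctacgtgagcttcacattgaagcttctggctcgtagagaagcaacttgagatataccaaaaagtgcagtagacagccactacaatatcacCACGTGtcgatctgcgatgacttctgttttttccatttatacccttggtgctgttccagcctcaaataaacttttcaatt
CCA1: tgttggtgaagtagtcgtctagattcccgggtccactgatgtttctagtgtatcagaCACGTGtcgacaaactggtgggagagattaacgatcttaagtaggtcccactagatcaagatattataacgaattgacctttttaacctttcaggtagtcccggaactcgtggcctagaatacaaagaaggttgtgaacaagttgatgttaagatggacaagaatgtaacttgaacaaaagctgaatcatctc
PRR5: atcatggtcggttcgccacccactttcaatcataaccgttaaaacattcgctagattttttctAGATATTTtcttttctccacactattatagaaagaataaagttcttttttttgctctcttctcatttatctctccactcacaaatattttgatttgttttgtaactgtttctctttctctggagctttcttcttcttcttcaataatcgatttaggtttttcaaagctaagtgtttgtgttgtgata
BT2: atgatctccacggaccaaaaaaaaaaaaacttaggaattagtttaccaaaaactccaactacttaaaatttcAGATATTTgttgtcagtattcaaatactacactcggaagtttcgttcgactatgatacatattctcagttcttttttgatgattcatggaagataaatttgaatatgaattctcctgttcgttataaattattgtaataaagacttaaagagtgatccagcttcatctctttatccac
GDPD1: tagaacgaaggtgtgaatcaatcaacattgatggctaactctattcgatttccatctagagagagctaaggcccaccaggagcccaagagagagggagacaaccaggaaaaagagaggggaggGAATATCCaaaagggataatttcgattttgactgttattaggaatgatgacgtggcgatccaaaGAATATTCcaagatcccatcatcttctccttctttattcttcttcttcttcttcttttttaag
The stretches are chr1:37872-38121 (minus strand) for LHY, chr2:19245341-19245590 (plus strand) for CCA1, chr5:8358547-8358796 (minus strand) for PRR5, chr3:17910739-17910988 (minus strand) for BT2 and chr3:350011-350260 (minus strand) for GDPD1. The capitals mark a G-box that begins 80 bases before the start of LHY and 193 bases before that of CCA1, both lower with MS at 24 h. An evening element begins 187 bases before PRR5, which was higher and whose stretch also holds a cold and drought element 244 bases before its start, left in lower case. The evening element begins 178 bases before BT2, which was lower. GDPD1, which was lower, holds P1BS matches that begin 127 and 63 bases before its start.

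Nuclear genes of photosynthesis were modestly higher, with 15 of 22 called higher, none lower and a median of 0.38. LHCB3, a light-harvesting protein of photosystem II, had 5860, 5780 and 5960 CPM with MS at 24 h, against 3400, 3850 and 3930 CPM untreated (0.66 ± 0.09, adjusted p = 1.27e-06). LHCA4 (0.60 ± 0.10), PSAD1 (0.46 ± 0.08) and LHCA3 (0.43 ± 0.08), all of photosystem I, rose as well. These genes include markers of green leaf, and in whole seedlings a different share of leaf tissue and more transcript per cell cannot be told apart. The summed green leaf markers were higher in every MS library, as given above, and their part in the result was not tested. In the list of chlorophyll synthesis and light signalling, 3 of 11 genes were called higher and 3 lower. Its changes ran from -1.07 to 2.0, with a median of -0.03. The lower ones were ELIP1 (-0.77 ± 0.10) and ELIP2 (-1.07 ± 0.18), which protect pigments in strong light, and the light signalling factor HY5 (-0.74 ± 0.14). PIF5, a growth-promoting factor that light destabilises, fell by 0.68 ± 0.09. It was 1 of 3 lower calls among 12 shade genes, with 1 higher, and the lower calls numbered 1 without untreated replicate 3.

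Wall-loosening genes moved in both directions, with 7 of 28 expansin and xyloglucan genes called higher and 9 lower. EXPA1 (AT1G69530) had 504, 444 and 467 CPM with MS at 24 h, against 148, 167 and 147 CPM untreated (1.62 ± 0.12, adjusted p = 1.72e-11). XTH6, a xyloglucan endotransglucosylase, had 113, 125 and 126 CPM with MS at 24 h, against 299, 328 and 291 CPM untreated (-1.34 ± 0.11), and XTH16 fell by 1.07 ± 0.12. TCH4, another such enzyme and a classical touch gene, had 29.9, 40.8 and 52.5 CPM with MS at 24 h, against 215, 191 and 161 CPM untreated (-2.20 ± 0.34, adjusted p = 1.53e-05). TCH4 belongs to the list of touch and early stress genes, of which 5 of 21 were called higher and 3, TCH4 included, lower, with 3 higher without MS replicate 2. The zinc finger factor ZAT10 had 4.87, 13.6 and 13 CPM with MS at 24 h, against 4.22, 4.27 and 3.69 CPM untreated (1.38 ± 0.26). The deadenylase CAF1A rose by 1.33 ± 0.23 and the ethylene response factor ERF5 rose by 0.95 ± 0.17.

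Surface and water transport genes were lower where called. Aquaporins, the water channels, held 14 lower and none higher of 23, with a median of -0.37. PIP2;1, a plasma membrane channel, had 1330, 1280 and 1280 CPM with MS at 24 h, against 2050, 2170 and 1990 CPM untreated (-0.67 ± 0.07, adjusted p = 3.64e-09). PIP1;3 (-0.98 ± 0.10), PIP2;7 (-0.94 ± 0.09) and PIP2;3 (-1.14 ± 0.09) fell further, and PIP2;3 may share read pairs with its close copy PIP2;2. In the wax and cutin list 7 of 23 genes tested were lower and none higher. The elongase CER6, needed for shoot wax, had 161, 170 and 147 CPM with MS at 24 h, against 332, 282 and 269 CPM untreated (-0.89 ± 0.14). The cutin hydroxylase CYP86A2 (-0.84 ± 0.08), KCS1 (-0.64 ± 0.12) and CER3 (-0.50 ± 0.08) fell too, whereas CER1, which makes alkanes, was not called (-0.32 ± 0.13, adjusted p = 0.093). The suberin list had 6 of 13 lower and none higher, among them KCS20 (-0.74 ± 0.14), KCS2 (-0.63 ± 0.14) and CYP86A1 (-0.41 ± 0.09). None of the 8 Casparian strip or 19 root hair genes was called.

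Cytokinin response genes were lower in 8 of 15, with 1 higher and a median of -0.51. The type-A response regulators, which cytokinin induces and which damp its signal, carried this count. ARR7 (AT1G19050) had 12.1, 10.6 and 9.84 CPM with MS at 24 h, against 53.8, 65.0 and 68.2 CPM untreated (-2.52 ± 0.14, adjusted p = 4.53e-14). ARR15 had 3.46, 3.43 and 3.6 CPM with MS at 24 h, against 17.7, 18.7 and 18.6 CPM untreated (-2.39 ± 0.23). ARR6 (-1.79 ± 0.16) and ARR4 (-0.98 ± 0.10) fell as well. Of 17 auxin genes, 4 were lower and 1 higher, with IAA3, an auxin response repressor, at -1.36 ± 0.13 and the auxin-conjugating enzymes GH3.5 and GH3.6 at -0.82 ± 0.10 and -0.58 ± 0.11. Among 19 cell cycle genes 8 were lower and 1 higher, including CYCB2;3 (-0.68 ± 0.15) and CDC20.1 (-0.53 ± 0.11). That lower count became 5 without MS replicate 1, 4 without MS replicate 3 and 3 without untreated replicate 1.

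Genes of low oxygen gave calls in both directions at 24 h. In the list of oxygen sensing and hypoxia regulators 5 of 16 genes were called lower and 2 higher, and in that of fermentation and sucrose breakdown 3 of 9 were lower and 2 higher. ADH1, the alcohol dehydrogenase of fermentation, had 115, 92.4 and 97.0 CPM with MS at 24 h, against 85.3, 134 and 114 CPM untreated, with overlapping groups and no call (-0.13 ± 0.19, adjusted p = 0.699). PDC1, a pyruvate decarboxylase of the step before it, had 57.3, 55.6 and 58.4 CPM with MS at 24 h, against 73.1, 96.9 and 91.4 CPM untreated (-0.61 ± 0.12). SUS4, a sucrose synthase of oxygen-poor tissue, had 55.8, 54.7 and 58.9 CPM with MS at 24 h, against 101, 103 and 104 CPM untreated (-0.86 ± 0.10, adjusted p = 4.55e-08). Both of these were lower in each MS library. The cysteine oxidase PCO2 (-0.91 ± 0.15) and LBD41 (-0.89 ± 0.12), core genes of the low-oxygen response, fell too. NAC102 (0.88 ± 0.11), the oxygen-sensing factor RAP2.12 (0.31 ± 0.06) and the alanine aminotransferase ALAAT1 (0.41 ± 0.10) rose. PDC2, another pyruvate decarboxylase, went against PDC1 and was called higher (0.55, adjusted p = 0.00431). Without untreated replicate 1 its adjusted p was 0.0537. PCO1 (-0.21 ± 0.10, adjusted p = 0.143) and the hypoxia response factor HRE1 (-0.26 ± 0.12, adjusted p = 0.159) were not called.

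Ethylene genes were called at 26.5% (9 of 34), against 19.9% of all genes. Of 13 genes of ethylene synthesis 3 were higher and 2 lower, of 11 of perception and signalling 1 was higher, and of 10 responses 3 were higher and none lower. ACO4, an enzyme of the last step, had 241, 245 and 278 CPM with MS at 24 h, against 204, 206 and 205 CPM untreated, higher in each MS library (0.31 ± 0.07, adjusted p = 0.00159). Of the enzymes that make its substrate, ACS4 rose by 1.70 ± 0.39 and ACS11 fell by 1.64 ± 0.33, both at low levels. The kinase CTR1, which holds the pathway off, rose by 0.33 ± 0.08. The responses called were the defensin PDF1.2A (1.96 ± 0.40), ERF2 (0.78 ± 0.20) and HEL (0.73 ± 0.16). In the list of mitochondrial dysfunction 2 of 14 genes were higher and 3 lower, and the lower count became 1 without MS replicate 3 and without untreated replicate 3. AOX1A, the alternative oxidase, had 35.7, 36.6 and 35.3 CPM with MS at 24 h, against 26.1, 35.6 and 41.3 CPM untreated, with no call (0.06 ± 0.15, adjusted p = 0.826), while the outer membrane protein OM66 fell by 1.08 ± 0.30 and AT2G21640 rose by 1.25 ± 0.27.

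Stress and defence lists gave calls on both sides. In the list of catalases, superoxide dismutases and ascorbate peroxidases 5 of 10 genes tested were higher and 1 lower. APX1, the cytosolic ascorbate peroxidase, had 849, 869 and 860 CPM with MS at 24 h, against 513, 584 and 499 CPM untreated (0.69 ± 0.10), with CAT1 (0.87 ± 0.14) and SAPX (0.51 ± 0.12) higher and the leaf catalase CAT2 lower (-0.48 ± 0.08). Of 15 heat shock genes 7 were higher and 3 lower, and the higher ones were mainly small chaperones at low levels. HSP17.4 had 5.23, 2.56 and 4.38 CPM with MS at 24 h, against 0.308, 0.878 and 0.632 CPM untreated (2.72 ± 0.51), and HSP17.6II rose by 3.54 ± 0.68, whereas the heat shock factor HSFA7A fell by 0.94 ± 0.18. Cold, drought and dehydrin genes were higher in 5 of 19 tested and lower in 1, with RAB18 at 2.17 ± 0.48 and COR15A at 1.07 ± 0.28, while RD29A was not called (0.28 ± 0.12, adjusted p = 0.106). Abscisic acid signalling had 2 of 13 higher, among them the phosphatase ABI1 (0.60 ± 0.13), and 4 lower, 2 of them without MS replicate 2. HAB1 (-0.48 ± 0.10), a relative of ABI1, and the factor RD26 (-1.17 ± 0.14) were lower.

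Of 14 aliphatic glucosinolate genes 8 were higher and 1 lower, and 5 were higher without MS replicate 2. CYP79F1, which starts the core pathway, had 118, 161 and 132 CPM with MS at 24 h, against 83.9, 79.9 and 65.3 CPM untreated (0.84 ± 0.15). The sulphotransferases of the last core step, SOT17 (0.73 ± 0.13) and SOT18 (0.57 ± 0.10), rose and the chain elongation enzyme MAM3 fell by 0.44 ± 0.09. Among 13 indole glucosinolate and camalexin genes 2 were higher and 1 lower, or 5 higher in a fit of the 6 libraries alone and 4 in one of the 15 wild-type libraries, with the regulator MYB34 at 0.51 ± 0.08 and the hydroxylase CYP81F2 at -0.83 ± 0.18. MYB51, another regulator, missed the threshold (-0.44 ± 0.17, adjusted p = 0.0599). Jasmonate genes had 3 of 23 tested higher, or 5 in each of these other fits, and 4 lower. The biosynthetic enzyme AOC2 (0.89 ± 0.14) and the storage protein VSP2 (1.47 ± 0.26) were higher, and the repressors JAZ3 (-0.83 ± 0.12) and JAZ9 (-0.76 ± 0.11) were lower. Of 19 genes of salicylic and pipecolic acid immunity, 2 were higher and 2 lower. The share called was 21.1% here and 23.1% in the indole list, near the 19.9% of all genes. PR1, the salicylic acid marker, had 13.2, 22.3 and 11.6 CPM with MS at 24 h, against 43.3, 26.3 and 24.7 CPM untreated, and was not called (-1.0 ± 0.91, adjusted p = 0.498). In a fit of these 6 libraries alone its adjusted p was 0.00512. The remaining 4 lists (ferritin, stomata, senescence and the thalianol and marneral clusters) together had 4 higher and 4 lower calls among 37 genes tested. In that order 25.0%, 21.4%, 14.3% and 40.0% of their genes were called, in short lists, against 19.9% of all genes.

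The MS libraries taken at 3 h carry a batch of their own and share the untreated libraries, so the values are given side by side. In a cycle of light and dark, the hour of the day may differ between the groups as well. The time under liquid cannot be told apart from that hour. At 3 h against untreated the median change was -2.15 for the morning clock list and 1.33 for the day and evening list. With MS at 3 h against untreated, 7055 genes (33.2%) were called, and with MS at 24 h against MS at 3 h, 3911 (18.4%). LHY averaged 606 ± 44.1 CPM untreated, 13.6 ± 1.19 CPM at 3 h and 154 ± 14.3 CPM at 24 h (SD, n = 3 each), so it was lowest at 3 h. BT2 averaged 295 ± 10.6, 17.2 ± 1.45 and 28.6 ± 6.42 CPM in the same order, and DIN10 averaged 931 ± 51.3, 231 ± 8.03 and 254 ± 27.7 CPM. Both were low at 3 h as well as at 24 h. BTS averaged 339 ± 40.4, 97.1 ± 11.6 and 77.7 ± 6.43 CPM, and EXPA1 averaged 154 ± 11.7, 418 ± 34.1 and 472 ± 30.4 CPM. The fermentation gene ADH1 had another pattern, at 111 ± 24.4 CPM untreated, 227 ± 52.2 CPM at 3 h and 101 ± 11.8 CPM at 24 h.

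**Figure D4:**
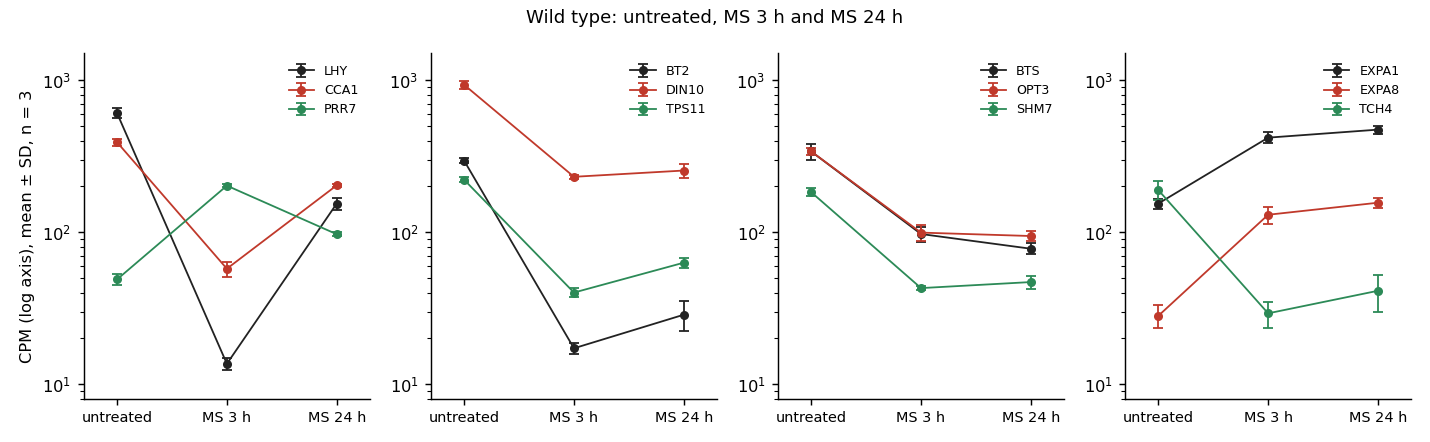
Mean CPM ± SD (log axis, 3 libraries each) of 12 genes in wild type, untreated, with MS at 3 h and with MS at 24 h. LHY and CCA1 are lowest and PRR7 highest at 3 h, while the nutrient and sugar genes are low, and EXPA1 and EXPA8 high, at both times with MS.

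Whether the difference between MS at 24 h and untreated depended on EIN2 was examined with the ein2-5 libraries, which share no library with the wild-type ones. In ein2-5, 3191 genes (15%) were called, 1794 (8.44%) higher and 1397 (6.57%) lower. The genotypes shared 1581 genes called in the same direction, 37.4% of those called in wild type and 49.5% of those called in ein2-5, and 74 genes were called in opposite directions. The difference between the genotypes was called for 852 genes (4.01%). For 679 of these (3.19% of genes tested) the change was more negative, or less positive, in wild type, and for 173 (0.814%) it was the other way.

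Of the sugar starvation genes, 11 of 16 were called for the difference between genotypes, each with a lower change in wild type. Their median change was -1.25 in wild type and -0.23 in ein2-5. In ein2-5, 4 of the 16 were called lower and 1 higher. The change there was -0.72 for MCCA, -0.43 for DIN10 and -0.35 for ASN1. TPS11 had 133, 138 and 120 CPM with MS at 24 h in ein2-5, against 144, 109 and 125 CPM in untreated ein2-5, where the groups overlapped. The untreated level itself was lower in ein2-5 (126 ± 17.3 CPM) than in wild type (221 ± 7.86 CPM, SD, n = 3 each). BT2 showed the same arrangement, with 177, 168 and 164 CPM with MS at 24 h in ein2-5, against 210, 157 and 138 CPM in untreated ein2-5, a change of 0.01, and the difference between genotypes was -3.37 ± 0.21 (adjusted p = 8.25e-12).

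Iron genes fell in both genotypes, with 11 of 23 lower and 1 higher in ein2-5, a median of -0.89 there, and 4 genes called for the difference, or 2 without wild-type MS replicate 3. Sulphur genes had 5 of 15 lower in ein2-5, 1 higher, and 4 called for the difference. The phosphate list had 4 of 23 higher and 3 lower in ein2-5, with 2 called for the difference. These counts rested on single libraries. The higher count in ein2-5 became 1 without MS replicate 3 or untreated replicate 1 of ein2-5 and 2 without its untreated replicate 2, and the lower count became 1 without its MS replicate 2 and 0 without its untreated replicate 3. The count for the difference became 4 without wild-type MS replicate 2, 5 without wild-type untreated replicate 3 or ein2-5 MS replicate 2, and 10 without ein2-5 untreated replicate 3. Morning clock genes (8 of 10 lower in ein2-5), aquaporins (14 of 23 lower) and cytokinin genes (8 of 15 lower, 2 higher) gave close to the same counts as in wild type, with 1, 2 and 1 genes called for the difference. LHY changed by -1.90 in ein2-5 and F3H by -1.50.

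Several defence and touch lists had more higher calls in ein2-5 than in wild type. Touch and early stress genes were higher in 12 of 21 in ein2-5, jasmonate genes in 12 of 23, immunity genes in 13 of 19 and indole glucosinolate genes in 9 of 13, with none lower in any of these lists. The difference between genotypes was called for 6, 7, 3 and 6 of them, in that order. It was negative, with the lower change in wild type, for all but MYB34 of the indole list (0.66). Without ein2-5 untreated replicate 2 the touch count became 10 and the immunity count 7. The jasmonate count of 7 became 4 without wild-type MS replicate 1 or 3, wild-type untreated replicate 2, ein2-5 MS replicate 1 or 2, or ein2-5 untreated replicate 1 or 3, and the 12 higher jasmonate genes of ein2-5 became 7 without its MS replicate 1. TCH4 had 140, 111 and 86.1 CPM with MS at 24 h in ein2-5, against 72.2, 49.9 and 57.6 CPM in untreated ein2-5, higher in each MS library, and its difference between genotypes was -3.11 ± 0.48 (adjusted p = 7.15e-05). ACS11 had 9.77, 10.1 and 8.37 CPM with MS at 24 h in ein2-5, against 2.35, 4.47 and 1.42 CPM in untreated ein2-5. It thus rose by 1.77 in ein2-5 and fell by 1.64 in wild type. The ein2-5 libraries with MS at 24 h differed more from each other, with a chi-square per degree of freedom of 9.16 to 21.2, than the wild-type ones, and the part of this in the differences was not tested.

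**Figure D5:**
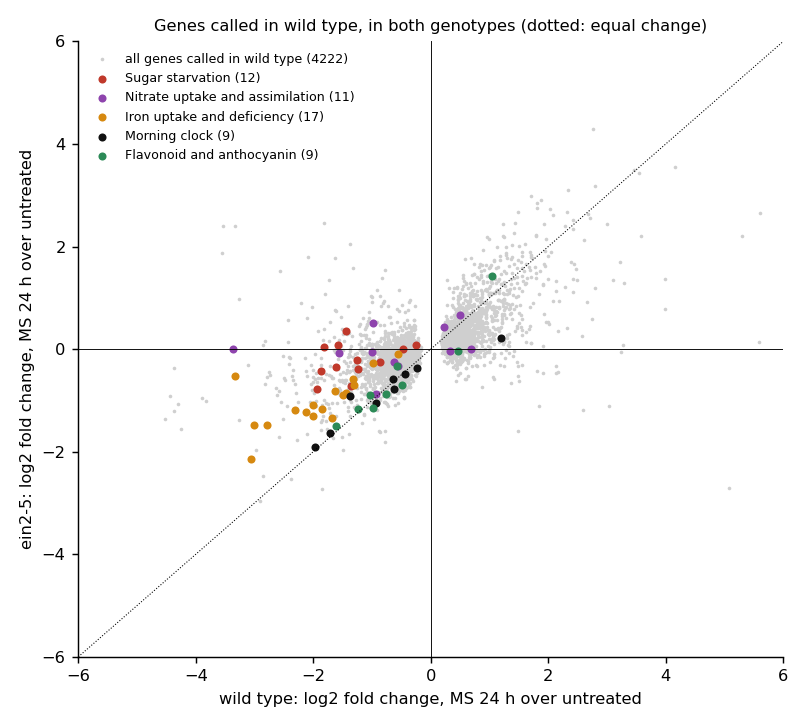
Log2 fold change of MS at 24 h over untreated in wild type (across) and in ein2-5 (upwards) for the 4222 genes called in wild type, with the dotted line at equal change and the called genes of 5 lists in colour. Most morning clock and flavonoid genes lie near the line, with PRR9 (1.19 in wild type, 0.22 in ein2-5) an exception. The median of the sugar starvation list was -1.25 in wild type and -0.23 in ein2-5. In ein2-5, 4 of its 16 genes were called lower and 1 higher. BT2 of the nitrate list lies near 0 in ein2-5.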

How the data were processed

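Messenger RNA of whole seedlings was sequenced as read pairs from poly(A)-selected libraries, 3 for each of 10 groups. The deposited table holds expected counts per gene, in which the authors gave pairs with several alignments in fractions. Per the submitters' processing notes HISAT2, SAMtools and featureCounts were used with TAIR10, and strand was not used per the file headers, so overlapping antisense genes cannot be separated. Of the values, 6.31% were not whole, and all were rounded.

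Genes with enough counts (filterByExpr of edgeR 4.0.16 in R 4.3.3, minimum count 10) were fitted with 1 mean per group over all 30 libraries (total counts 21.2 to 32.6 M), TMM factors and the quasi-likelihood test with Benjamini-Hochberg adjustment over all 21256 genes. The standard error is the log2 fold change over the root of F. Of 27655 loci, 27445 matched RefSeq names. The code was tested on simulated data for this comparison with 21066 genes: 62.7%, 86.6% and 100% of planted 1.5-, 2- and 4-fold changes were recovered, and 4.6% of calls fell on unchanged genes.

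The members and the 42 gene lists were chosen with earlier results of these data known. A rule gave 195 genes that could be named. It took up to 10 in each direction with the largest called change at 5 CPM or more and no overlap of libraries. It also took the 4 of each list with the smallest adjusted p, and a set of named markers. The text leaves some of them out, among them genes whose calls changed under alternatives. Exceptions to the rule are said to have been picked after their values were seen. Same-numbered libraries were no closer than others, so replicates were unpaired. Promoters came from the RefSeq genome TAIR10.1 by annotated gene start, with no account of neighbouring genes. Alternatives were other scaling factors, filters, tests (DESeq2 1.42.0), thresholds and library sets, a replicate block, no organelle genes, and each library left out in turn. Tables and figures used Python 3.11.15, pandas 2.3.3 and matplotlib 3.10.9.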

Additional observations from a re-analysis of the deposited data

Results flagged for a closer look

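Of the 143 genes named above other than PDC2, GI and BOA, 46 changed differently in the genotypes. For these the adjusted p of the difference (wild type minus ein2-5, log2 scale) was under 0.05 in edgeR's quasi-likelihood test. Those 46 are 32.2% of the named genes, against 4.01% of all genes tested. Most were named for a large or well-supported change in wild type, which favours such a difference. The share therefore says nothing about these genes as a set. The difference was negative for 39 of them and positive for 7, and for 15 the 2 genotypes had changes of opposite sign.

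Among carbon and nitrate genes the difference was -3.37 for BT2, -1.86 for TPS11, -1.49 for BT1, -1.48 for AT1G25550, -1.44 for DIN10, -1.27 for ASN1, -1.04 for TPS9, -0.95 for AT1G68670 and -0.64 for MCCA. In the iron, sulphur and phosphate lipid genes it was -2.80 for BHLH101, -1.88 for GDPD2, -1.72 for SDI1, -1.38 for SHM7, -0.90 for BTS, -0.69 for OPT3 and -0.63 for APR1. For low-oxygen and mitochondrial genes the values were -1.55 for OM66, -1.01 for SUS4, -0.85 for PCO2, -0.82 for LBD41, -0.66 for PDC1 and 0.61 for NAC102. ACS11 had a difference of -3.41, falling in wild type and rising in ein2-5.

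Wall and surface genes gave -3.11 for TCH4, -0.77 for XTH16, -0.74 for KCS20, -0.63 for XTH6, -0.49 for CYP86A2, 0.92 for EXPA8 and 1.29 for EXPA1. Hormone and light genes gave -1.16 for ARR7, -0.85 for GH3.5, -0.82 for JAZ3, -0.78 for RD26, -0.75 for JAZ9 and -0.64 for PIF5. The clock gene PRR9 gave 0.97. In glucosinolate genes the difference was -2.21 for CYP81F2, -1.72 for MYB51, -0.45 for MAM3 and 0.66 for MYB34. The remaining genes were TPS04 (-5.74), AT1G50040 (-3.24), AT1G13609 (-2.69), AT3G44450 (1.62) and AT4G33720 (4.15).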

How the results depend on the processing

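No named gene changed direction with a call under any alternative run. Over the 143 genes counted above and all alternatives, 2268 values stayed on their side of the threshold, 9 lost their call and 11 gained it. Over all genes that are named or met the naming rule, 3103 values stayed, 63 lost their call and 29 gained it. At an adjusted p under 0.01, wild type with MS at 24 h against untreated had 2614 calls (1126 higher, 1488 lower), ein2-5 had 1901, the difference between genotypes 463 and MS at 24 h against 3 h 2541. Fitted on its own libraries, ein2-5 had 2116. With each library left out in turn, the wild-type comparison gave 3220 to 3594 calls (1407 to 1587 higher, 1784 to 2007 lower), ein2-5 2252 to 2907, the difference between genotypes 597 to 996, MS at 3 h against untreated 6045 to 6299 and MS at 24 h against 3 h 3063 to 3219. Replicate numbers did not pair the libraries (mean correlation of same-numbered residuals -0.0324 in the 6 libraries), and a fit with a replicate block gave 4124 calls. Among genes described as not called, HRE1, RD29A, CER1, PR1, MYB51, GPT2, BAM5 and BOA passed under some alternatives. The median change of all genes stayed between -0.012 and 0.024 under every scaling.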
